A study of Mus musculus with 16 samples.

Results

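The glycolysis and hypoxia response genes are a set of 39 genes that encode the enzymes, transporters and regulators of glucose breakdown together with well known targets of the hypoxia-inducible factors. They were chosen by gene symbol with earlier results of these data known. Shares of the set given beside those of all genes therefore describe it and do not test it. All 39 were among the 20200 genes of the deposited count table. The table held 16 libraries of sorted myeloid cells from the tissue between bone and tendon graft of 12-week-old male C57BL/6 mice after anterior cruciate ligament reconstruction (ACLR), a knee operation in which a tendon graft is pulled through bone tunnels. Cells were taken on day 1 and day 14 and sorted as live, Lin-, CD45+ cells into neutrophils (Ly6G+), F4/80- cells (Ly6G- CD11b+ F4/80-), CD9+ cells (Ly6G- CD11b+ F4/80+ CD9+) and CX3CR1+ cells (Ly6G- CD11b+ F4/80+ CX3CR1+ CD9-). Each of the 8 groups of population and day held 2 libraries, and each library pooled the cells of 5 to 7 mice. The p-values rest on the spread between pools, estimated for each gene over all 8 groups together. The paper's total of mice was too small for 16 separate pools of that size, so populations of the same day shared pools. The main tests between populations treated their libraries as independent. All groups came from operated wild-type mice, so unoperated tissue was not analysed here, and the few cells carrying both CD9 and CX3CR1 fell into the CD9+ gate.

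Glycolysis splits glucose into pyruvate in the cytosol, and lactate dehydrogenase turns pyruvate into lactate when mitochondria do not take it up. Neutrophils draw most of their energy from this pathway, and inflammatory macrophages raise it. When oxygen is short, the prolyl hydroxylases of the EGLN family no longer mark the hypoxia-inducible factor alpha subunits for destruction, and the factors then bind short motifs (ACGTG or GCGTG) beside genes for glucose transport, glycolysis, mitophagy and the hydroxylases themselves. Inflammatory signals can raise the same factors without low oxygen.

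The libraries held 10587857 to 19814119 counted reads on day 1 and 9233952 to 12721779 on day 14. Levels are given as CPM, the reads of a gene scaled to a common library size after trimmed mean of M values normalisation, and a gene passed the test when its adjusted p-value was under 0.05 and its log2 fold change was at least 1 in size. Of the 39 genes, 37 passed the expression filter (a group mean of at least 3 CPM in at least 1 group) and were tested among 11998 genes, while the enolase Eno2 and the peptide hormone gene Adm did not. The gated antigens largely followed the labels, with Ly6g at 81.7 to 286 CPM in neutrophils and at most 10.1 CPM elsewhere, Adgre1 (F4/80) at 120 to 217 CPM in both F4/80+ populations and 8.43 to 13.8 CPM in F4/80- cells, and Cx3cr1 highest in CX3CR1+ cells at 133 to 293 CPM. Cd9 RNA was highest in neutrophils, at 346 to 678 CPM, and lowest in CX3CR1+ cells. Markers of other cell types were present. The 8 neutrophil markers were all detected in every group, and their summed level was 40474 to 82439 CPM in neutrophils, 21521 to 27869 CPM in F4/80- cells, 4084 to 12737 CPM in CD9+ cells and 470 to 1081 CPM in CX3CR1+ cells. The 6 eosinophil markers summed to 6512 to 10567 CPM in CD9+ cells on day 14 against 597 to 621 CPM on day 1, and reached 127 CPM at most in the other populations. The 4 mast cell and basophil markers summed to 425 to 795 CPM in F4/80- cells. In CX3CR1+ cells of day 14 the 4 erythroid markers summed to 7.06 CPM in replicate 1 and 56.0 CPM in replicate 2. The 3 stromal and bone markers found there summed to 2.70 and 49.3 CPM in the same order. In such bulk samples fewer cells of a type and less RNA per cell cannot be told apart. The 2 CD9+ libraries of day 1 were the least alike pair (Pearson r = 0.935 across genes, against 0.976 to 0.988 in the other groups). The SD of their log2 differences over all genes was 0.91, against 0.38 to 0.62 in the other groups. Because the spread was estimated over all groups together, standard errors and p-values of comparisons with CD9+ cells of day 1 do not carry this wider spread in full. In this pair the library of replicate 2 was higher in 29 of the 37 genes, by a median of 0.46 on the log2 scale, and it held the lower neutrophil marker sum, 4084 CPM against 12203 CPM. The part of these other cells in the results was not tested.

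**Figure D1:**
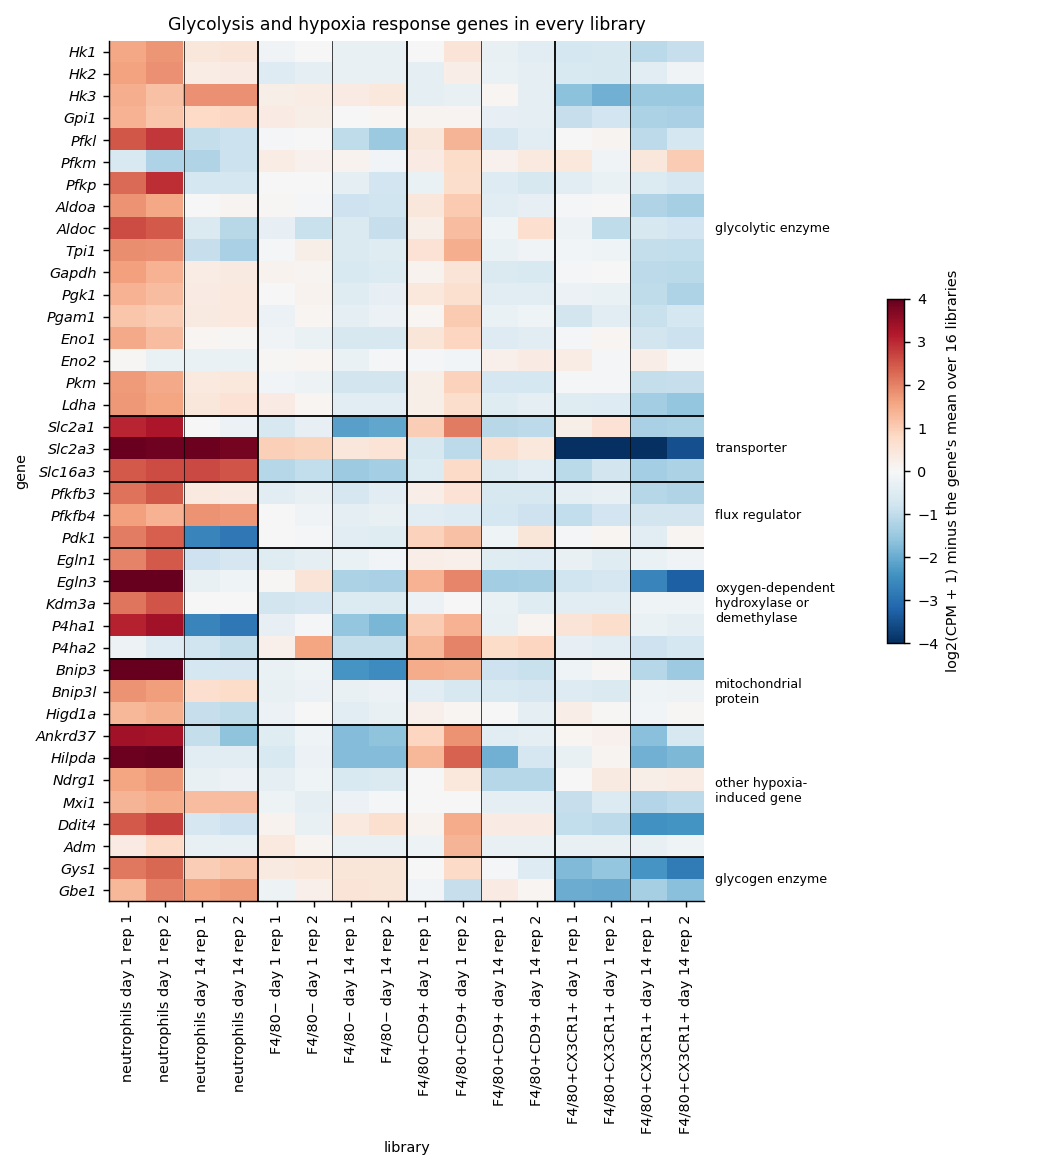
Heat map of the 39 genes (rows, grouped by role) in the 16 libraries (columns, replicates side by side). Colour gives log2(CPM + 1) minus the gene's mean over all libraries. Neutrophils of day 1 held the highest level of most genes, and CX3CR1+ cells of day 14 many of the lowest.

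The set was at its highest in neutrophils on day 1. The 17 glycolytic enzymes together summed to 15359 and 14095 CPM in the neutrophil libraries of day 1, against 6669 and 6870 CPM on day 14. In CD9+ cells the enzymes summed to 5611 and 7937 CPM at first and 3551 and 3477 CPM later. The sums in F4/80- cells were 5023 and 4825 CPM against 3547 and 3615 CPM. In CX3CR1+ cells they were 3948 and 4065 CPM against 2363 and 2354 CPM. These are sums of normalised levels and not shares of a library's reads. The libraries of the 2 days did not overlap in any population, and CX3CR1+ cells had the lowest sum on both days. Several of these enzymes, Gapdh, Pgk1, Ldha, Aldoa, Tpi1, Pgam1, Pkm and Eno1 among them, have near-identical processed copies in the mouse genome, and how the deposited counts treated reads matching several places is not given in the sources used here, so their absolute levels are uncertain.

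Genes of the set were lower on day 14 than on day 1 in all 4 populations, and in neutrophils most of them were. In neutrophils 26 of the 37 genes tested (70.3%) were lower on day 14, where 10.9% of all genes tested were. None was higher, where 3.15% of all genes were, and Hk3 alone was higher at an unadjusted p under 0.05. Beside this change, the summed level of the 8 macrophage and monocyte markers in neutrophil libraries was 670 to 672 CPM on day 1 and 201 to 205 CPM on day 14, and that of the 8 neutrophil markers was 40474 to 65619 CPM and 77139 to 82439 CPM. The neutrophil markers did not move alike. Cxcr2 went from 1869 and 1397 CPM to 941 and 1009 CPM and Csf3r from 3636 and 3807 CPM to 2372 and 2403 CPM. S100a9 overlapped between days, and Ly6g, Mmp8, S100a8, Camp and Ltf were higher on day 14. None of these markers was at 0, and their part in the result was not tested. In CD9+ cells 13 genes (35.1%) were lower against a background of 3.48%, and 1 was higher against 4.75%. In CX3CR1+ cells 8 genes (21.6%) were lower against 3.47%, and 1 was higher against 2.39%. In F4/80- cells 8 genes (21.6%) were lower against 2.24%, and none was higher against 1.01% (0 genes at an unadjusted p under 0.05). DESeq2 called the same number of genes as edgeR in each of these 4 comparisons. In CD9+ cells the count of genes that passed in either direction, 14, became 24 without replicate 1 of day 1 and 9 without replicate 2 of day 1. In F4/80- cells the 8 became 5 without either library of day 1 or without replicate 2 of day 14. The median log2 change of the 37 genes was -1.61 in neutrophils, -0.88 in CD9+ cells, -0.43 in CX3CR1+ cells and -0.33 in F4/80- cells, where the median of all genes tested lay between -0.02 and 0.03.

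**Figure D2:**
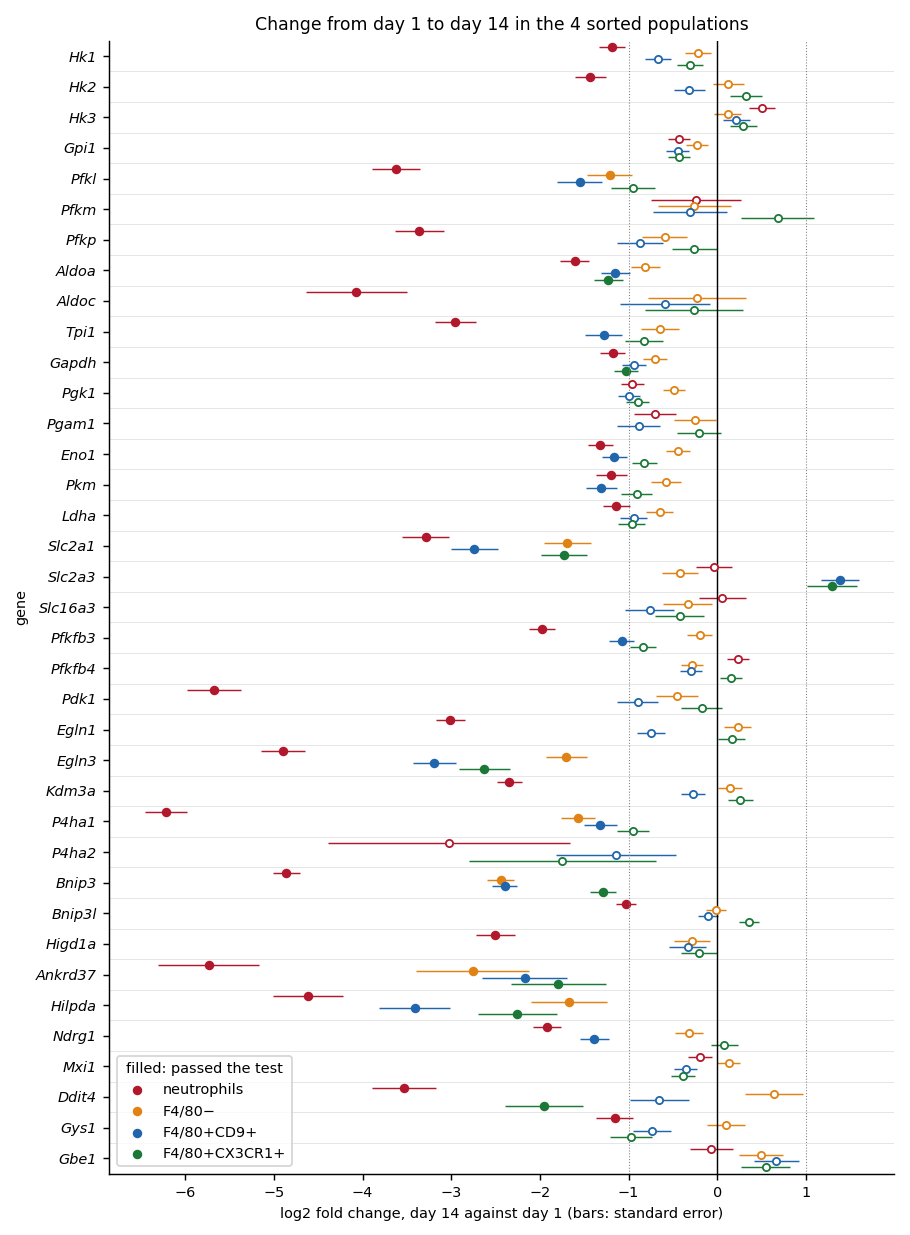
Log2 fold change from day 1 to day 14 (x axis, bars give the standard error) of the 37 tested genes (y axis) in the 4 populations (colours), with filled points for genes that passed the test and dotted lines at a log2 change of 1 in either direction. Neutrophil points lie furthest left for most hypoxia targets, while Slc2a3 lies to the right in CD9+ and CX3CR1+ cells. P4ha2 in F4/80- cells is not drawn because it had no read on day 14.

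A core of 5 genes was lower on day 14 in every population, a pattern held by 0.767% of all genes tested. They were Slc2a1, which encodes the glucose transporter GLUT1, Egln3, a HIF prolyl hydroxylase, Bnip3, a mitophagy receptor of the outer mitochondrial membrane, Hilpda, a lipid droplet protein that restrains lipolysis, and Ankrd37, an ankyrin repeat protein. All 5 are textbook targets of the hypoxia-inducible factors, so the bases before their starts are shown. The sequences are those of RefSeq on GRCm38.p6, 250 bases long and ending just before the annotated start, with capitals marking ACGTG or GCGTG read on either strand. They lie at chr4:119108495-119108744 on the plus strand for Slc2a1, chr12:54203875-54204124 on the minus strand for Egln3, chr7:138909507-138909756 on the minus strand for Bnip3, chr8:45999851-46000100 on the minus strand for Ankrd37 and chr6:29272238-29272487 on the plus strand for Hilpda (the more upstream of 2 annotated starts).
Slc2a1: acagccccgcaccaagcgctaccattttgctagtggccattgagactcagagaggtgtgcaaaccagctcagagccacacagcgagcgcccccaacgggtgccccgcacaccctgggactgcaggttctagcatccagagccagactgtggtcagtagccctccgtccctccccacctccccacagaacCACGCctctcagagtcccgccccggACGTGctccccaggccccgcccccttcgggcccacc
Egln3: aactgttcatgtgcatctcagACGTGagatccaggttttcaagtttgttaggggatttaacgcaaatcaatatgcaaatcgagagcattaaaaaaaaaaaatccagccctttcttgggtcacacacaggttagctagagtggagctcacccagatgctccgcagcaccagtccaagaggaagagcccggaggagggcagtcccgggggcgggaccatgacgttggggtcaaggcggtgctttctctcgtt
Bnip3: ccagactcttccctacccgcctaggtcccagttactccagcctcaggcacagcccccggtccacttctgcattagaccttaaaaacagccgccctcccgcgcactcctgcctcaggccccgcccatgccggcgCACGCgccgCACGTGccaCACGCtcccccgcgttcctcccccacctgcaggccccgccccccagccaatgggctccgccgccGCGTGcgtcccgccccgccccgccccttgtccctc
Ankrd37: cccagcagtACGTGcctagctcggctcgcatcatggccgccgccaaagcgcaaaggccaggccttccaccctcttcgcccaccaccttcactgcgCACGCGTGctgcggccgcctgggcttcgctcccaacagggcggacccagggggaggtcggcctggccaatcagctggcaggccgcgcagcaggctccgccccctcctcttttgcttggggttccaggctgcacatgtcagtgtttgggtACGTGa
Hilpda: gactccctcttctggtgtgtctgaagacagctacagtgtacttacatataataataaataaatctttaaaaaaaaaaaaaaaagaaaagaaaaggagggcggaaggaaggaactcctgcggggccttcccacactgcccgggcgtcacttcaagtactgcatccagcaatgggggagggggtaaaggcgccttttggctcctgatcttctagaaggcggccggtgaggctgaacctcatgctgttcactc
Counting each strand, Bnip3 held ACGTG 2 times and GCGTG 3 times in the window shown, within 117 bases of the start. Its 2 ACGTG were a single CACGTG read on both strands, 108 and 107 bases before the start. Ankrd37 held each motif 2 times by the same count, and its 2 GCGTG overlapped in a single CACGCGTG, 155 and 152 bases before the start. Slc2a1 held each once, at 36 and 61 bases before the start. Egln3 held a single ACGTG, 229 bases before its start. The Hilpda window shown held neither, while the window of its other start held ACGTG 43 bases and GCGTG 8 and 111 bases before that start. Of the 39 genes, 36 matched the promoter table, the others being Slc2a3, Bnip3l and Ndrg1. Read on either strand, ACGTG was present in 28 of the genes' 54 windows of 250 bases before to 50 after a start (51.9%), where 19.6% of all 32851 windows held it. GCGTG was present in 29 of the 54 windows (53.7%), where 32.4% of all windows held it. Windows of 1 gene can overlap, the 2 motifs can overlap each other, and a match describes letters only.

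Bnip3 was followed in all 16 libraries. Its 2 neutrophil libraries stood at 526 and 527 CPM on day 1 and at 17.9 and 18.2 CPM on day 14. In CD9+ cells it stood at 85.5 and 81.4 CPM against 16.1 and 15.5 CPM, in F4/80- cells at 24.6 and 26.4 CPM against 4.95 and 4.41 CPM, and in CX3CR1+ cells at 26.1 and 30.9 CPM against 12.98 and 10.3 CPM. No library of day 14 reached a library of day 1 of its own population, and neutrophils of day 14 lay below F4/80- cells of day 1. The log2 change was -4.86 ± 0.15 (SE) in neutrophils, -2.44 ± 0.15 in F4/80- cells, -2.40 ± 0.14 in CD9+ cells and -1.29 ± 0.14 in CX3CR1+ cells (edgeR quasi-likelihood test, adjusted p from 4.32e-11 to 2.78e-05).

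Egln3, whose enzyme marks the factors for destruction and is itself among their targets, stood at 544 and 671 CPM in neutrophils on day 1 and at 19.5 and 21.2 CPM on day 14. In CD9+ cells it stood at 64.2 and 96.6 CPM against 8.54 and 9.02 CPM. In CX3CR1+ cells it stood at 13.5 and 14.8 CPM against 2.96 and 1.58 CPM. The days did not overlap in these populations or in F4/80- cells, where it stood at 24.7 and 35.1 CPM against 9.31 and 9.06 CPM. The change was 29.8-fold in neutrophils, 9.13-fold in CD9+ cells, 6.18-fold in CX3CR1+ cells and 3.25-fold in F4/80- cells (adjusted p from 4.34e-09 to 0.00042). Hilpda followed the same order of days, from 156 and 172 CPM to 6.74 and 6.59 CPM in neutrophils, from 24.7 and 52.1 CPM to 1.73 and 5.47 CPM in CD9+ cells, from 7.47 and 10.2 CPM to 1.74 and 1.95 CPM in CX3CR1+ cells and from 5.76 and 7.74 CPM to 2.11 and 2.12 CPM in F4/80- cells. It was the gene of the set with the largest fall in CD9+ cells, at -3.41 ± 0.40 on the log2 scale. Ankrd37 fell from 42.7 and 42.0 CPM to 1.204 and 0.412 CPM in neutrophils, a log2 change of -5.74 ± 0.57, and from 2.05 and 2.75 CPM to 0.291 and 0.408 CPM in F4/80- cells, -2.76 ± 0.64. The calls of Ankrd37 and Hilpda in F4/80- cells rested on few reads. Leaving out any 1 of the 4 libraries took the adjusted p of Ankrd37 to between 0.0517 and 0.181 and that of Hilpda to between 0.0743 and 0.202. In CX3CR1+ cells, where Ankrd37 stood at 3.47 and 3.82 CPM against 0.349 and 1.76 CPM, its call was lost without either library of day 1 or without replicate 1 of day 14 (adjusted p from 0.102 to 0.300). In CD9+ cells its 6.79 and 13.9 CPM against 2.21 and 2.33 CPM passed, but not without replicate 1 of day 14 (adjusted p = 0.0667), so the place of Ankrd37 among the 5 rested on calls that single libraries decided in 3 of the 4 populations.

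**Figure D3:**
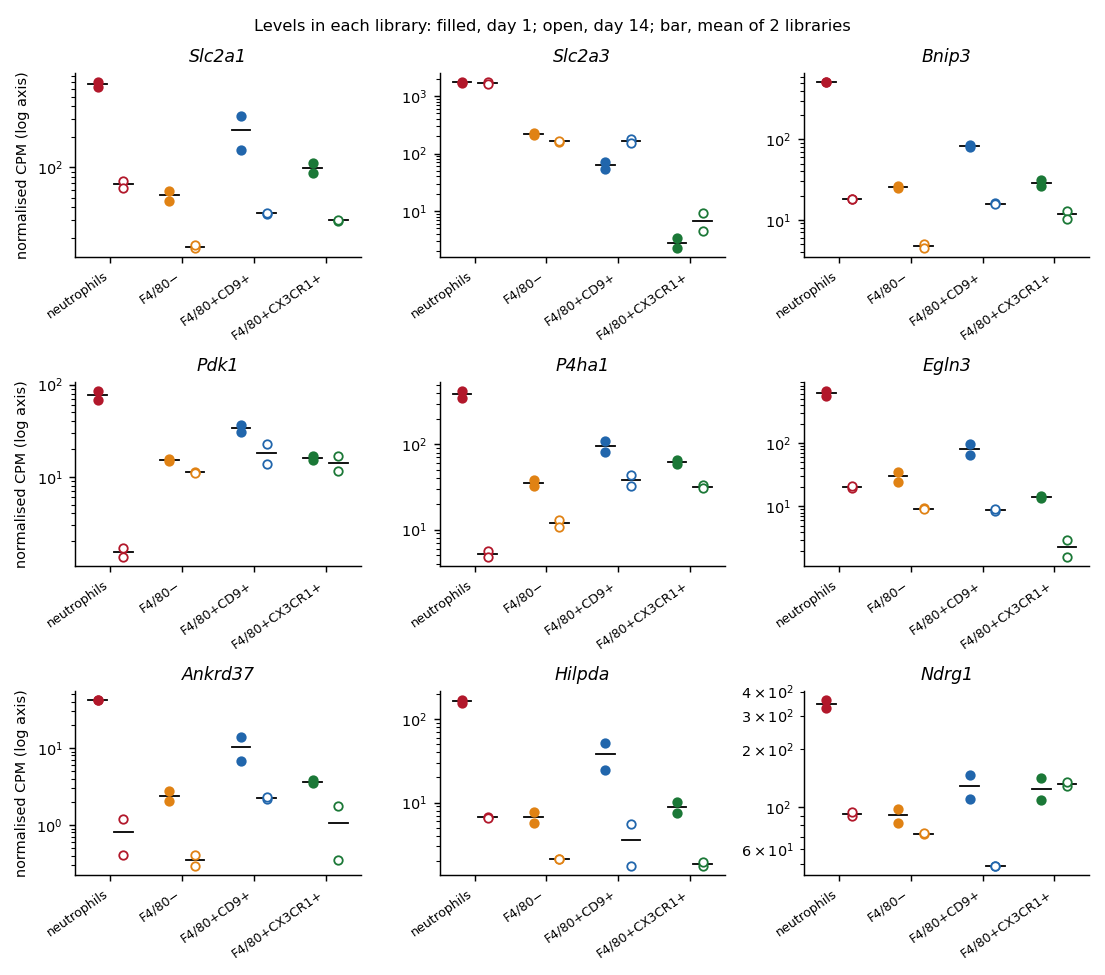
Normalised CPM (log axis) of 9 genes in each library of the 4 populations, with filled points for day 1, open points for day 14 and a bar at the mean of the 2 libraries. Bnip3 and Egln3 drop in every population, Slc2a3 stays between 1650 and 1796 CPM in neutrophils and rises in CD9+ and CX3CR1+ cells, and Ndrg1 stays level in CX3CR1+ cells.

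The 2 glucose transporters went different ways. Slc2a1 stood at 621 and 704 CPM in neutrophils on day 1 and 73.1 and 62.4 CPM on day 14, at 148 and 318 CPM against 34.1 and 35.5 CPM in CD9+ cells, at 87.1 and 110 CPM against 29.5 and 30.1 CPM in CX3CR1+ cells and at 46.6 and 58.7 CPM against 15.7 and 16.9 CPM in F4/80- cells. Its log2 change was -3.29 ± 0.27, -2.74 ± 0.27, -1.73 ± 0.26 and -1.69 ± 0.27 in that order, with no overlap between days. Slc2a3, which encodes the high-affinity transporter GLUT3, stood at 1796 and 1707 CPM in neutrophils on day 1 and 1764 and 1650 CPM on day 14, and the days overlapped (log2 change -0.04 ± 0.20). In CD9+ cells Slc2a3 rose from 72.5 and 54.7 CPM to 178 and 155 CPM, a log2 change of 1.39 ± 0.21 (adjusted p = 0.000478). In CX3CR1+ cells it rose from 2.24 and 3.34 CPM to 4.53 and 9.10 CPM, 1.29 ± 0.28 (adjusted p = 0.00712), a call that was lost without CX3CR1+ replicate 1 of day 1 (adjusted p = 0.093) or replicate 2 of day 14 (adjusted p = 0.203). In F4/80- cells its 225 and 212 CPM on day 1 and 158 and 169 CPM on day 14 gave -0.42 ± 0.20, which did not pass. The rise in CD9+ cells went together with the higher eosinophil marker sum of day 14. Per kilobase of exon, Slc2a1 made up 43.8% ± 3.1 (SD, n = 2) of the sum of both transporters in neutrophils on day 1 and 7.57% ± 0.46 on day 14. The share was 86.6% ± 8.1 and 30.2% ± 2.7 in CD9+ cells, 33.2% ± 4.5 and 17.1% ± 0.08 in F4/80- cells, and 98.7% ± 0.15 and 90.2% ± 4.1 in CX3CR1+ cells. GLUT1 RNA was therefore the larger part in F4/80+ cells of day 1 and in CX3CR1+ cells of day 14, and the smaller part elsewhere. The lactate exporter gene Slc16a3 stood at 799 and 888 CPM in neutrophils on day 1 and 916 and 839 CPM on day 14, and did not pass the test over time in any population.

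**Figure D4:**
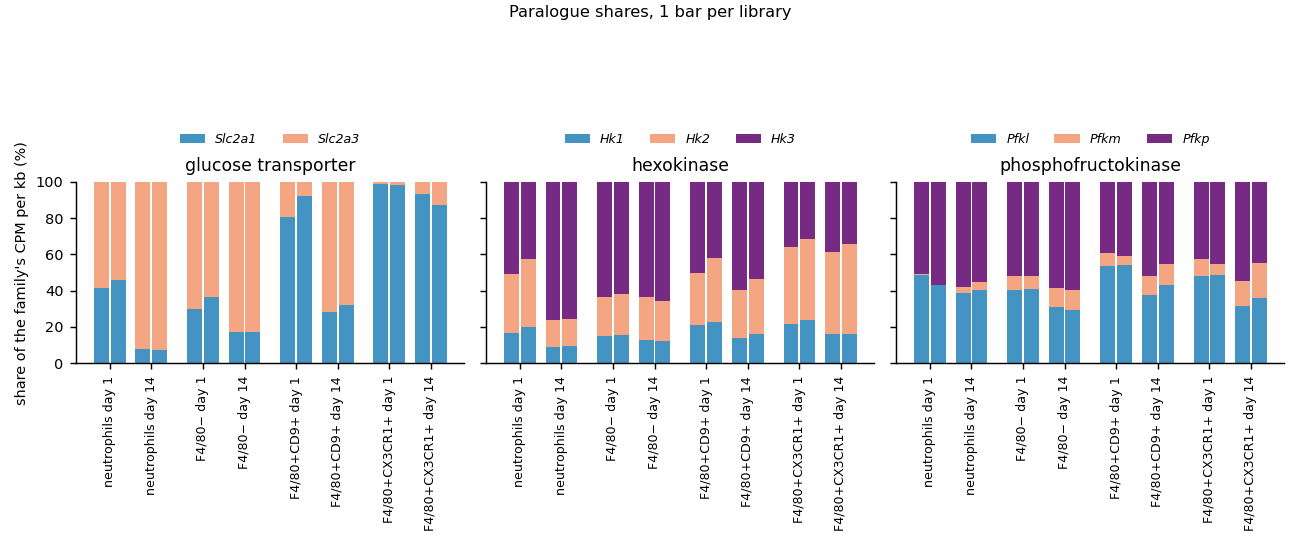
Share of each paralogue in the summed CPM per kilobase of exon of its family (y axis, %), with 1 bar per library for the glucose transporters, hexokinases and phosphofructokinases. Slc2a1 gives way to Slc2a3 between day 1 and day 14 in neutrophils, CD9+ cells and F4/80- cells, and Hk3 takes 75.8% of the hexokinase sum in neutrophils of day 14.

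Among the glycolytic enzymes, the steps differed in neutrophils. Of the 16 enzymes tested, 11 were lower on day 14. The largest falls were those of Pfkl, Pfkp, Aldoc and Tpi1, with log2 changes of -3.62 ± 0.27, -3.36 ± 0.28, -4.07 ± 0.57 and -2.95 ± 0.23. At phosphofructokinase, the committed step, Pfkl went from 304 and 388 CPM to 27.1 and 29.0 CPM and Pfkp from 632 and 1026 CPM to 81.1 and 80.4 CPM. Tpi1, of triosephosphate isomerase, went from 344 and 336 CPM to 49.6 and 38.4 CPM. Aldoc went from 25.9 and 23.3 CPM to 1.93 and 1.03 CPM. Per kilobase, Aldoc was 1.00% of the aldolase sum on day 1 and 0.19% on day 14. Aldoa, the rest of that sum, went from 2345 and 1998 CPM to 690 and 734 CPM. Gpi1, of an upper step, went from 2009 and 1643 CPM to 1331 and 1376 CPM and did not pass. In the lower part of the pathway, Gapdh, Eno1, Pkm and Ldha moved less than Pfkl, Pfkp and Tpi1, at log2 changes between -1.32 and -1.14. Pgk1 and Pgam1 had adjusted p-values of 5.29e-05 and 0.0405 but changes under the fold threshold. In CD9+ cells 5 enzymes were lower on day 14 (Pfkl, Aldoa, Tpi1, Eno1 and Pkm, with log2 changes between -1.55 and -1.15). Without CD9+ replicate 2 of day 1, Aldoa, Tpi1, Eno1 and Pkm fell under the fold threshold (-0.82, -0.78, -0.97 and -0.93). Aldoa and Eno1 also did when libraries were scaled by size alone (-0.94 and -0.96). In CX3CR1+ cells Aldoa and Gapdh were lower (-1.23 ± 0.16 and -1.03 ± 0.14), and in F4/80- cells Pfkl was (-1.21 ± 0.25), though not without either library of day 1 or replicate 2 of day 14 (adjusted p from 0.0541 to 0.141).

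The first step differed by isoform. Hk1 and Hk2, the widely expressed and the inducible hexokinase, fell in neutrophils, Hk2 from 644 and 747 CPM to 255 and 261 CPM. Hk3 stood at 621 and 517 CPM in neutrophils on day 1 and 804 and 811 CPM on day 14. The difference of 0.51 ± 0.15 on the log2 scale was under the fold threshold (adjusted p = 0.0208). Per kilobase, Hk3 made up 46.5% ± 5.9 (SD, n = 2) of the 3 hexokinases in neutrophils on day 1 and 75.8% ± 0.28 on day 14. It made up 46.0% ± 6.1 and 56.5% ± 4.0 in CD9+ cells, 62.6% ± 0.98 and 64.6% ± 1.2 in F4/80- cells, and 33.8% ± 3.3 and 36.5% ± 3.2 in CX3CR1+ cells. The libraries of the 2 days overlapped in CX3CR1+ cells alone, and the shift was widest in neutrophils. Phosphofructokinase in neutrophils was almost all of the liver and platelet types, with Pfkp at 53.6% ± 4.4 of the family on day 1 and 56.7% ± 1.9 on day 14, and Pfkm at 1.05 to 2.17 CPM.

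Genes that steer the flux split as well. Pdk1, the kinase that closes the pyruvate dehydrogenase gate to mitochondria, fell from 68.7 and 86.2 CPM to 1.69 and 1.34 CPM in neutrophils, a log2 change of -5.68 ± 0.31 (adjusted p = 9.24e-09). The other populations of day 14 lay above the neutrophils, with Pdk1 at 11.1 to 22.5 CPM, and did not pass over time (CD9+ cells -0.90 ± 0.23, F4/80- cells -0.45 ± 0.23, CX3CR1+ cells -0.17 ± 0.23). Pfkfb3, whose product activates phosphofructokinase, was lower on day 14 in neutrophils (-1.98 ± 0.15) and CD9+ cells (-1.08 ± 0.14). The CD9+ change fell under the fold threshold without replicate 2 of day 1 (-0.91) and with library size scaling (-0.88). Pfkfb4 of the same family stood at 295 and 244 CPM in neutrophils on day 1 and 323 and 310 CPM on day 14 and passed over time in no population.

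Among the oxygen-dependent enzymes was the largest fitted change of the set in neutrophils. P4ha1, the catalytic subunit of collagen prolyl hydroxylase, went from 346 and 426 CPM to 5.66 and 4.73 CPM in neutrophils, 74.5-fold lower (log2 change -6.22 ± 0.24, adjusted p = 3.25e-10). It was also lower in F4/80- cells (-1.57 ± 0.19) and CD9+ cells (-1.32 ± 0.18), while its -0.95 ± 0.18 in CX3CR1+ cells stayed under the fold threshold. Egln1, the main oxygen sensor of the family, stood at 247 and 340 CPM against 34.4 and 38.3 CPM in neutrophils and was 8.06-fold lower, and the histone demethylase gene Kdm3a stood at 389 and 502 CPM against 88.9 and 86.4 CPM and was 5.08-fold lower. Neither passed in another population. P4ha2 was counted with 25 and 104 reads in F4/80- cells on day 1 and with 0 reads in both libraries of day 14, at least 12.9-fold lower against a floor of 3 reads per library. The bound was 5.27-fold without replicate 2 of day 1 and 20.6-fold without replicate 1 of day 1. In CX3CR1+ cells its 20 reads on day 1 and 3 reads on day 14 gave a ratio of 3.54 with an exact 95% counting interval of 1.05 to 18.6, which covers counting error only. The remaining mitochondrial genes were lower on day 14 in neutrophils alone among the 4 tests, Higd1a, a respiratory chain assembly factor, by -2.50 ± 0.22 and Bnip3l, the paralogue of Bnip3, by -1.03 ± 0.11. Bnip3l sat at the fold threshold and was lost without neutrophil replicate 1 of either day.

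Ddit4, an inhibitor of mTORC1, fell in neutrophils from 64.9 and 78.3 CPM to 6.62 and 5.76 CPM (-3.53 ± 0.36) and in CX3CR1+ cells from 5.05 and 4.76 CPM to 1.220 and 1.299 CPM (-1.95 ± 0.44). The CX3CR1+ call was lost without either library of day 14 (adjusted p = 0.075 and 0.0688). In F4/80- cells Ddit4 stood at 12.3 and 8.75 CPM against 14.8 and 17.9 CPM and did not pass. Ndrg1, a stress-responsive gene, was lower on day 14 in neutrophils (-1.92 ± 0.16) and CD9+ cells (-1.39 ± 0.16) but stood at 108 and 141 CPM against 129 and 134 CPM in CX3CR1+ cells. Mxi1, which encodes an antagonist of MYC, passed in no population. Of the glycogen enzymes, the synthase Gys1 was lower on day 14 in neutrophils (-1.16 ± 0.21) and the branching enzyme Gbe1 passed nowhere. Adm was counted with 7 and 12 reads in neutrophils of day 1 and 0 in both of day 14, and with 1 and 20 reads in the CD9+ libraries of day 1 and 0 in those of day 14. Eno2 had at most 11 reads in any library.

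The differences between populations in these time changes were tested directly. The change in neutrophils was more negative than that in CD9+ cells for 15 of the 37 genes (40.5%), against 6.7% of all genes tested, and more positive for none against 1.33% (2 genes at an unadjusted p under 0.05). The widest gaps were those of P4ha1 (-4.90 ± 0.29 on the log2 scale, adjusted p = 4.11e-07), Pdk1 (-4.78 ± 0.38), Ankrd37 (-3.56 ± 0.75) and Aldoc (-3.48 ± 0.76). That of Ankrd37 was lost without neutrophil replicate 2 of day 14 (adjusted p = 0.0546), and that of Aldoc without the same library or without CD9+ replicate 2 of day 14 (adjusted p = 0.0588 and 0.0584). Slc2a1, Hilpda and Ndrg1 were not among them. For the CD9+ change less the CX3CR1+ change, 2 genes (5.41%) were lower against 0.933% of all genes, namely Bnip3 (-1.11 ± 0.20, adjusted p = 0.00671) and Ndrg1 (-1.46 ± 0.22, adjusted p = 0.00219), and none was higher against 1.34% (1 gene at an unadjusted p under 0.05). The Bnip3 gap was lost when libraries were scaled by size alone (-0.89) and without CX3CR1+ replicate 1 of either day, while 5 genes passed without CD9+ replicate 1 of day 1. For the F4/80- change less the CD9+ change, Egln3 and Ndrg1 were higher (1.49 ± 0.33 and 1.07 ± 0.22, a background of 0.592%) and Slc2a3 was lower (-1.81 ± 0.29, a background of 1.1%). The count of 3 became 12 without CD9+ replicate 1 of day 1, 1 without either CD9+ library of day 14 or F4/80- replicate 2 of day 14, and 0 without F4/80- replicate 1 of day 14. With library size or upper quartile scaling 1 was higher and 2 were lower. The comparisons that subtract the CD9+ change from that of neutrophils or F4/80- cells were chosen after seeing the data.

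CD9+ cells held more of this RNA than CX3CR1+ cells on both days. On day 1, 16 of the 37 genes (43.2%) were higher in CD9+ cells, against 6.36% of all genes tested, and none was lower against 1.88% (0 genes at an unadjusted p under 0.05). The median log2 difference of the 37 genes was 0.94, and 0.04 over all genes tested. All 3 transporters, both glycogen enzymes and 4 of 16 glycolytic enzymes (Hk3, Aldoc, Tpi1 and Pgam1) were among the 16. Slc2a3 stood at 72.5 and 54.7 CPM against 2.24 and 3.34 CPM, 22.96-fold higher (adjusted p = 4.27e-08). P4ha2 stood at 3.89 and 6.65 CPM against 0.527 and 0.418 CPM, from 55 and 63 reads against 12 and 8, and its log2 difference was 3.44 ± 0.74, which did not pass without CX3CR1+ replicate 1 or 2 (adjusted p = 0.0520 and 0.0646). Egln3 stood at 64.2 and 96.6 CPM against 13.5 and 14.8 CPM, 5.66-fold higher. Gys1 stood at 75.7 and 128 CPM against 21.3 and 25.0 CPM and Gbe1 at 38.3 and 21.4 CPM against 9.75 and 9.51 CPM, log2 differences of 2.14 ± 0.22 and 1.64 ± 0.27. The CD9+ libraries were the higher ones in each of these genes without overlap. Slc2a1 and Slc16a3 did not pass without CD9+ replicate 2 or CX3CR1+ replicate 1, nor Aldoc without replicate 2 of either population. Tpi1 and Pgam1 fell under the fold threshold without CD9+ replicate 2 (0.72 and 0.68) and with library size scaling (0.96 and 0.999). The count depended on 1 library, with 9 genes without CD9+ replicate 2 and 21 without CD9+ replicate 1, and it was 9 when libraries were scaled by size alone.

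On day 14, 8 genes (21.6%) were higher in CD9+ cells against 9.65% of all genes tested, and 1 was lower against 4.55%. Slc2a3 stood at 178 and 155 CPM against 4.53 and 9.10 CPM, 24.5-fold higher, and Ddit4 at 14.1 and 14.2 CPM against 1.220 and 1.299 CPM, 11.2-fold higher. P4ha2 had 48 reads in the CD9+ libraries and 3 in the CX3CR1+ libraries, a ratio of 17.5 with an exact 95% counting interval of 5.66 to 88.1, and its call was lost without CX3CR1+ replicate 1 (adjusted p = 0.0679). Gys1, Gbe1, Hk3, Egln3 and Ldha made up the rest, with log2 differences between 1.02 and 2.38, of which Ldha fell under the fold threshold without replicate 2 of either population. Ndrg1 was the exception, at 49.0 and 49.1 CPM in CD9+ cells against 129 and 134 CPM in CX3CR1+ cells (-1.42 ± 0.16, adjusted p = 8.08e-06). Slc2a1 and Bnip3, higher in CD9+ cells on day 1, differed by 0.22 ± 0.26 and 0.44 ± 0.15 on day 14 and did not pass. Beside both days, the neutrophil marker sum was 4084 to 12737 CPM in CD9+ cells and 470 to 1081 CPM in CX3CR1+ cells. Of the 8 genes higher on day 14, Slc2a3, Hk3, Gys1, Gbe1, Egln3 and Ldha stood at their highest in neutrophils on both days. Ddit4 and P4ha2 were lower in neutrophils of day 14 than in CD9+ cells, at 6.62 and 5.76 CPM and at 1 and 0 reads. On day 1 P4ha2 was lower there too, at 9 and 4 reads. The part of neutrophil RNA in these differences was not tested.

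**Figure D5:**
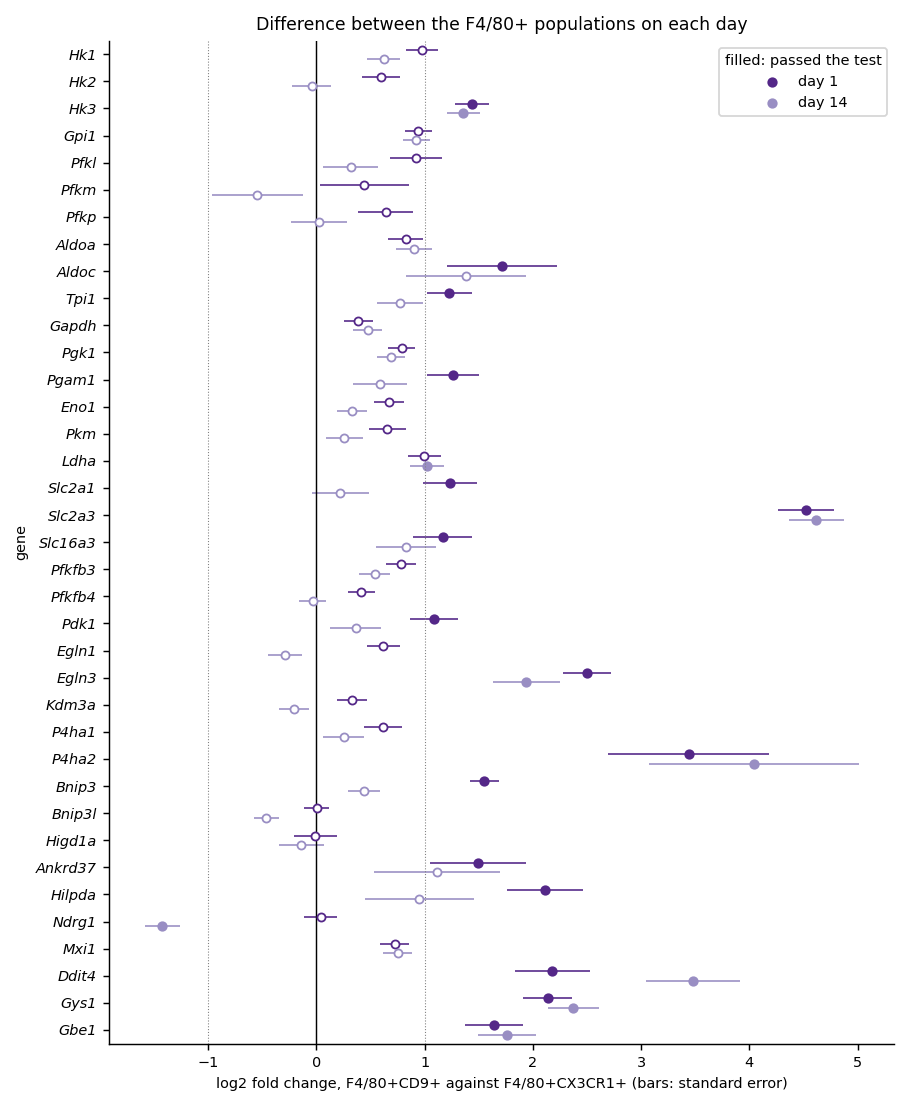
Log2 fold change of CD9+ against CX3CR1+ cells (x axis, bars give the standard error) for the 37 tested genes (y axis) on day 1 (dark) and day 14 (light), with filled points for genes that passed the test. Slc2a3 lies above 4 on both days, and Ndrg1 is the gene that passed to the left of 0, on day 14.

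Against F4/80- cells, CD9+ cells were higher in 11 genes on day 1 (29.7%, background 9.23%) and lower in 1 (background 6.16%). Hilpda stood at 24.7 and 52.1 CPM against 5.76 and 7.74 CPM (2.49 ± 0.36), Slc2a1 at 148 and 318 CPM against 46.6 and 58.7 CPM (2.14 ± 0.26) and Ankrd37 at 6.79 and 13.9 CPM against 2.05 and 2.75 CPM (2.09 ± 0.45). The gene lower in CD9+ cells was Slc2a3, at 72.5 and 54.7 CPM against 225 and 212 CPM (-1.78 ± 0.21). Groups did not overlap in these genes, and among the 12 that passed they overlapped for Ddit4 alone. Without CD9+ replicate 2 the count was 8, and without CD9+ replicate 1 it was 17. On day 14, 5 genes were higher in CD9+ cells (13.5%, background 6.59%) and none was lower (background 1.11%, with 6 genes at an unadjusted p under 0.05). Bnip3 stood at 16.1 and 15.5 CPM against 4.95 and 4.41 CPM (1.75 ± 0.16) and Ankrd37 at 2.21 and 2.33 CPM against 0.291 and 0.408 CPM (2.68 ± 0.67). P4ha2 was counted with 23 and 25 reads in CD9+ cells and was at least 10.2-fold higher against the floor of 3 reads. P4ha1 and Slc2a1 were the others, and 3 genes passed without CD9+ replicate 2 or without either F4/80- library, Slc2a1 and Ankrd37 being the ones lost.

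Against neutrophils, CD9+ cells were lower in 29 genes on day 1 (78.4%, background 21.7%) and higher in 2 (5.41%, background 27.9%). Slc2a3 stood at 72.5 and 54.7 CPM against 1796 and 1707 CPM (-4.78 ± 0.24), Egln3 at 64.2 and 96.6 CPM against 544 and 671 CPM (-2.92 ± 0.22) and Bnip3 at 85.5 and 81.4 CPM against 526 and 527 CPM (-2.66 ± 0.13). P4ha2, with 55 and 63 reads against 9 and 4, and Pfkm, the muscle phosphofructokinase, at 5.09 and 7.08 CPM against 2.17 and 1.05 CPM, were the 2 that were higher. On day 14 the picture had turned for part of the set, with 12 genes lower (32.4%, background 19.9%) and 7 higher (18.9%, background 29.6%). Pdk1 stood at 13.9 and 22.5 CPM against 1.69 and 1.34 CPM and P4ha1 at 32.4 and 43.6 CPM against 5.66 and 4.73 CPM, both now higher in CD9+ cells (3.59 ± 0.31 and 2.87 ± 0.22) after having been lower on day 1. P4ha2 had 48 reads in CD9+ cells and 1 in neutrophils, a ratio of 42.6 with an exact 95% counting interval of 7.29 to 1717. Slc2a3 (-3.36 ± 0.22), Slc16a3 at 96.7 and 107 CPM against 916 and 839 CPM (-3.10 ± 0.29) and Pfkfb4 at 56.9 and 52.5 CPM against 323 and 310 CPM (-2.53 ± 0.13) led the genes that were lower. The split depended on scaling. It was 9 higher and 5 lower when libraries were scaled by size alone, and 9 higher and 8 lower with upper quartile scaling.

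Lists of related genes gave the surroundings of the set, and these too were chosen with earlier results of these data known. Over all genes tested, 10.9% were lower on day 14 in neutrophils, 3.48% in CD9+ cells, 3.47% in CX3CR1+ cells and 2.24% in F4/80- cells. The shares higher were 3.15%, 4.75%, 2.39% and 1.01% in that order. In CD9+ against CX3CR1+ cells, 6.36% were higher and 1.88% lower on day 1, and 9.65% and 4.55% on day 14. Of 14 genes of the HIF machinery, 12 were tested, and Hif1a, the oxygen-regulated subunit, was the 1 that passed over time. It was lower on day 14 in CD9+ cells (472 and 526 CPM against 157 and 177 CPM), CX3CR1+ cells (467 and 507 CPM against 165 and 161 CPM) and neutrophils (514 and 677 CPM against 196 and 161 CPM), with log2 changes of -1.58 ± 0.15, -1.58 ± 0.15 and -1.74 ± 0.15. In F4/80- cells, where it stood at 127 and 126 CPM against 94.8 and 93.5 CPM, it did not pass, and no gene of the list passed between CD9+ and CX3CR1+ cells. Of 20 tested genes among 25 other hypoxia-induced genes, 14 were lower on day 14 in neutrophils, 11 in CD9+ cells, 6 in CX3CR1+ cells and 6 in F4/80- cells, and 1, Ppfia4, was higher in F4/80- cells. Nos2, the inducible nitric oxide synthase, led each time, for instance at 548 and 676 CPM in neutrophils of day 1 and 0 and 0.206 CPM on day 14. Between CD9+ and CX3CR1+ cells 7 were higher on day 1, with Nos2 and Ero1l, an oxidase of the endoplasmic reticulum, in front, and 6 were higher and 1 lower on day 14.

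Other lists covered the neighbouring pathways, and the shares over all genes given above apply to their counts as well. Of 8 genes of the pentose phosphate pathway, which feeds NADPH to the phagocyte oxidase, none was lower over time and Pgls was higher on day 14 in neutrophils (1.27 ± 0.20) and F4/80- cells (1.16 ± 0.19). Rpia was higher in CD9+ than in CX3CR1+ cells on day 14. Of 11 tested genes of pyruvate entry and citrate synthase, Pdp1, the phosphatase that opposes Pdk1, was higher in neutrophils on day 14, at 2.89 and 3.81 CPM against 1.35 and 1.05 CPM on day 1 (1.47 ± 0.32), and Pcx was higher in CD9+ than in CX3CR1+ cells on day 14. Of 13 tested genes of glycogen metabolism, Pgm1 was lower on day 14 in neutrophils (-2.43 ± 0.15) and higher in CD9+ than in CX3CR1+ cells on day 1 (1.42 ± 0.15), and Ppp1r3d was lower on day 14 in CX3CR1+ cells. Among 13 tested isoenzymes outside the set, Adpgk, an ADP-dependent glucokinase, stood at 1436 and 1540 CPM in neutrophils of day 1 and 4031 and 4384 CPM on day 14, and was higher in CD9+ than in CX3CR1+ cells on both days, as was the testis-type lactate dehydrogenase gene Ldhc. Eno1b, a near-identical copy of Eno1, was lower on day 14 in neutrophils, CX3CR1+ cells and F4/80- cells. Over time Ldhc and Adpgk were also higher on day 14 in CD9+ cells, and Ldhb was in F4/80- cells. Counting all 13, 2 genes were higher in CD9+ cells over time, 1 was higher and 2 were lower in neutrophils, 2 were higher and 1 was lower in CD9+ than in CX3CR1+ cells on day 1, and 3 and 1 were on day 14.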

How the data were processed

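The authors' deposited table held raw read counts per gene for 16 libraries. Per the study's methods, SMART-Seq stranded libraries were sequenced paired-end on a NovaSeq, trimmed with Cutadapt, aligned with STAR to mm10 and counted over Gencode M23 exons. The strand setting and the treatment of multimapping reads are not given in the sources used here. The counts were analysed in R 4.3.3 with edgeR 4.0.16: genes with a group mean of at least 3 CPM in at least 1 of 8 groups were kept, normalised by trimmed mean of M values and fitted in 1 quasi-likelihood model with a mean per group. Benjamini-Hochberg adjustment ran over all 11998 genes in each comparison. The standard error is the size of the log2 fold change over the square root of F. Exact permutation of 2 libraries against 2 could not go below p = 0.333, so no single-gene permutation test was used. Depth was 9233952 to 19814119 counts per library. Where a group held no read, folds are lower bounds against 3 reads per library, and these bounds and the 95% intervals cover counting error only.

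The genes and the related lists were chosen with earlier results of these data known. Genes were named by rule: up to 3 members with the largest change in each direction of a comparison among those that passed without overlap of the groups, at least 1 member per role, and at most 2 genes of each related list. Others named were chosen after their values were seen. Alternatives were DESeq2 1.42.0, scaling by library size alone or by upper quartile, other filters, the adjusted p alone, a replicate block and leaving out each library, where a lone library is assumed to vary like the other groups. Scaling by library size moved the median of all genes by 0.19 in CD9+ cells over time, by -0.24 and -0.28 for CD9+ against CX3CR1+ and F4/80- cells on day 1, and by 0.33 and 0.49 against neutrophils on days 1 and 14 (0.21 and 0.23 by upper quartile). It moved the differences of time changes by 0.22 (CD9+ less CX3CR1+), -0.16 (neutrophils less CD9+) and -0.21 (F4/80- less CD9+). The script was tested on simulated data. Promoter windows came from RefSeq on GRCm38.p6, and per-kilobase levels used exon lengths of Gencode M21.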

Additional observations from a re-analysis of the deposited data

Results flagged for a closer look

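The change from day 1 to day 14 differed between populations by a test of the difference itself for the following genes (log2 values). For neutrophils less CD9+ cells, a comparison chosen after seeing the data, the difference was -4.90 for P4ha1, -4.78 for Pdk1, -3.56 for Ankrd37, -3.48 for Aldoc, -2.88 for Ddit4, -2.49 for Pfkp, -2.46 for Bnip3, -2.26 for Egln1, -2.17 for Higd1a, -2.07 for Pfkl, -2.07 for Kdm3a, -1.71 for Egln3, -1.67 for Tpi1, -1.42 for Slc2a3 and -1.12 for Hk2. For CD9+ less CX3CR1+ cells it was -1.46 for Ndrg1 and -1.11 for Bnip3. For F4/80- less CD9+ cells, also chosen after seeing the data, it was -1.81 for Slc2a3, 1.49 for Egln3 and 1.07 for Ndrg1.

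For the following pairs of populations, every library of day 14 lay on one side of the day 1 libraries in one population and on the opposite side in the other, and the difference between these pairs was not tested, although some of the genes passed above for another pair. The share of all genes with such a pattern was not computed. Separation of 2 libraries from 2 has an exact permutation p of 0.333 at best, so a listing does not by itself mark a difference between populations. Egln1 in CX3CR1+ cells was separated only by 50.51 CPM on day 1 against 50.54 CPM on day 14. Hk2 changed by 0.33 in CX3CR1+ cells, 0.12 in F4/80- cells and -1.43 in neutrophils (log2, day 14 against day 1). Egln1 changed by 0.16, 0.23 and -3.01 and Kdm3a by 0.26, 0.14 and -2.35 in the same order. Ddit4 changed by -1.95, 0.64 and -3.53, and Gys1 by -0.97, 0.10 and -1.16. Pfkfb4 changed by 0.15, -0.29 and 0.23. Bnip3l changed by 0.36 in CX3CR1+ cells and -1.03 in neutrophils. Pfkm changed by 0.68 in CX3CR1+ cells and -0.26 in F4/80- cells, and Slc2a3 by 1.29 and -0.42.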

How the results depend on the processing

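Of 169 results that passed for single genes, none changed direction under any alternative, and DESeq2 kept all 169. Scaling by library size kept 142, upper quartile scaling 158 and no filter 166; the filter in every group kept 107 and left 56 untested. Leaving out 1 library kept 669 of 756. Counts of genes that passed over time, in CD9+, CX3CR1+, F4/80- cells and neutrophils, were 14, 9, 8 and 26. The adjusted p alone gave 24 and 19 in CD9+ and CX3CR1+ cells, the filter in every group gave 5 and 4 in CX3CR1+ and F4/80- cells, and left-out libraries gave 9 to 24, 7 to 11, 5 to 6 and 25 to 27. For CD9+ against CX3CR1+ cells the 16 of day 1 became 30 by adjusted p alone, 9 by library size scaling, 9 with the filter in every group and 9 to 21 with a library left out, and the 9 of day 14 became 20 and 8 to 10. Against F4/80- cells the 12 of day 1 became 24 by adjusted p alone, 6 with the filter in every group and 8 to 17 with a library left out, and the 5 of day 14 became 11, 3 and 3 to 6. Against neutrophils the 31 of day 1 became 20 with the filter in every group and 29 to 35, and the 19 of day 14 became 32 by adjusted p alone, 11 with that filter and 17 to 20. For the differences of time changes, the 2 of CD9+ less CX3CR1+ cells became 1 by library size scaling and 1 to 5, the 15 of neutrophils less CD9+ cells 13 to 18, and the 3 of F4/80- less CD9+ cells 5 by adjusted p alone and 0 to 12. The cause was not tested.

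Higher and lower calls over all genes moved under library size scaling from 570 and 418 to 810 and 300 in CD9+ cells over time, from 763 and 225 to 613 and 501 for CD9+ against CX3CR1+ cells on day 1, from 1108 and 739 to 802 and 1245 against F4/80- cells on day 1, and from 3344 and 2601 to 4036 and 1881 and from 3554 and 2386 to 4725 and 1314 against neutrophils on days 1 and 14. Those of the differences moved from 161 and 112 to 260 and 54 (183 and 82 by upper quartile) for CD9+ less CX3CR1+ cells, from 159 and 804 to 86 and 1039 for neutrophils less CD9+ cells and from 71 and 132 to 40 and 215 for F4/80- less CD9+ cells. With the longest transcript as length, the Slc2a1 share on day 14 was 16.1% in F4/80- cells and 7.06% in neutrophils, the Hk3 share 29.6% and 56.8% in CX3CR1+ and F4/80- cells of day 1 and 51.6%, 59.7% and 71.5% in CD9+, F4/80- cells and neutrophils of day 14, and the Pfkp share in neutrophils of day 14 53.8%.

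The replicate block gave 14, 9, 8 and 26 genes over time and kept 168 of 169 results. Same-numbered libraries deviated together with correlations of 0.0132 to 0.144. Such low correlations cannot show that same-numbered libraries came from separate pools. The main model left out any pairing, and the replicate block was the setting that included it. With 2 libraries a group, genes of few reads such as Ankrd37 and P4ha2 were the least certain.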
